A study of Mus musculus with 8 samples.

Results

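The mitochondrial ribosome genes of mouse morulae were compared between embryos depleted of the chromatin assembly factor subunit P150 and control embryos. Members were all genes whose array probes join, through a RefSeq accession, to a symbol that starts with Mrpl or Mrps followed by a number. The rule gave 78 genes with 100 probes, out of 20656 named genes on the array. Of these, 77 genes with 98 probes were bright enough to be tested, out of 14598 tested genes. The probe of Mrpl21 was well above background on 0 of the 8 arrays, and no level is given for it. All 77 tested genes were well above background on all 8 arrays. Members were proposed with results of this comparison in view, so their counts and medians are a description and carry no test over the group.

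Mitochondrial ribosomes translate the few proteins encoded by mitochondrial DNA, all of which are subunits of the respiratory chain and ATP synthase. Their protein components are encoded in the nucleus, made on cytosolic ribosomes and imported, while their RNA comes from mitochondrial DNA. The small subunit reads the messenger RNA and the large subunit joins amino acids. Some components have a bacterial homologue, and others were acquired in the mitochondrial lineage and have none. The early mouse embryo inherits its mitochondria from the oocyte, and its oxygen consumption increases towards the blastocyst.

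P150KD embryos were fertilised in vitro, injected as zygotes with siRNA against P150 and cultured in KSOM medium to embryonic day 3.0, the morula stage. P150 is the large subunit of CAF-1, the chaperone that places new histones H3 and H4 on replicated DNA, and is encoded by Chaf1a. siControl embryos went through the same steps with a control siRNA; the strain is not given in the sources used here. There were 5 P150KD arrays and 3 siControl arrays with RNA pooled from 10 embryos each, amplified in 2 rounds, and an equal mass of amplified RNA was labelled for every array. The values are therefore relative levels within an array, and a change in total RNA per embryo was not measured. In whole embryos, fewer cells of a type and less RNA per cell cannot be told apart. The labels call the arrays replicates without saying whether they came from separate collections, so p-values measure the spread between these arrays, which may be technical.

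Levels are given as log2 signal relative to the 75th percentile of each array, so that 0 is the signal of a spot at that percentile. Log2 fold changes are P150KD minus siControl, with the standard error (SE) from limma and its two-sided p adjusted by Benjamini-Hochberg over all 30348 tested probes; a gene passed at an adjusted p under 0.05. Chaf1a, the targeted gene, read -1.47, 0.52, -0.48, -1.45 and -0.23 on the P150KD arrays, against 2.40, 2.09 and 2.27 on the siControl arrays. All 5 P150KD arrays lay below all siControl arrays, and the log2 fold change was -2.88 (SE 0.48, adjusted p = 0.0107), a level 7.34-fold lower. Between 50.12% and 55.95% of spots on an array were well above background, and no spot was saturated. Over all probes, 4231 of 30348 passed (13.9%), 2324 lower and 1907 higher; the split was 1487 lower and 2073 higher after quantile normalization, and 458 lower and 4796 higher with arrays scaled to 10 housekeeping genes.

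Markers of the morula, the 2-cell stage and leukocytes differed between the groups in part, while no cumulus cell or sperm marker passed. All 10 morula markers were well above background on every array. Their summed linear signal, in units of the 75th percentile, was 218 to 252 on P150KD arrays and 412 to 449 on siControl arrays, and 3 of the 10 fell (Tead4, Krt18 and Gata3). Krt18 alone gave 7.80 to 19.8 of the sums on P150KD arrays and 98.5 to 130 on siControl arrays. Of 7 measured genes of the 2-cell stage, 5 rose, with sums of 26.3 to 152 on P150KD arrays and 4.76 to 7.80 on siControl arrays. Of 8 leukocyte markers, Cd74, Coro1a and Srgn rose, with sums of 4.51 to 9.91 on P150KD arrays and 1.17 to 1.49 on siControl arrays. Cd74 alone gave 2.40 to 6.61 of the sums on P150KD arrays. Fcer1g, well above background on all 8 arrays, was lower and did not pass (-0.29, limma adjusted p = 0.389). Ptprc, Laptm5, Tyrobp and Lyz2 were well above background on no array. Of 10 cumulus cell markers 0 passed by limma (2 were higher at an unadjusted p under 0.05), with sums of 7.99 to 16.1 on P150KD arrays and 4.94 to 8.11 on siControl arrays, and Has2, Ptx3, Tnfaip6 and Fshr were well above background on no array. Amhr2 alone gave 6.46 to 13.2 of the sums on P150KD arrays and 4.28 to 6.28 on siControl arrays. Of 8 sperm markers 0 passed by limma (1 was higher at an unadjusted p under 0.05), with sums of 0.253 to 1.93 on P150KD arrays and 0.211 to 0.259 on siControl arrays. Prm1 alone gave 1.70 of the highest sum, that of P150KD replicate 2. The part of these shifts in the values of the mitochondrial ribosome genes was not tested.

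In P150KD embryos, 30 of the 77 mitochondrial ribosome genes fell and 0 rose, while 47 did not pass. Among all tested genes 10.5% fell and 6.65% rose. By limma's unadjusted p, 53 of the 77 were below 0.05 with a lower level and 1 with a higher level. The log2 fold change was below 0 for 75 of the 77, against 61.3% of all tested genes. On the scales of quantile normalization and of the housekeeping genes it was below 0 for 67 and 46 of the 77. The median over the 77 was -0.78, a level 1.71-fold lower, with an interquartile range of -0.89 to -0.39, beside a median of -0.24 over all tested genes. Housekeeping scaling moved the median of all genes to 0.41 and that of the 77 to -0.13, with 1 gene past the threshold lower (Mrpl23) and 2 higher (Mrps6 and Mrps7), and quantile normalization moved them to -0.12 and -0.53. The decrease is therefore given relative to the 75th percentile and to other genes of the array.

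Single genes changed moderately. The estimates ran from -1.47 for Mrpl50 to 0.40 for Mrps6, and 10 members were at least 2-fold lower. Over all tested genes 2457 of 14598 were, so a decrease of that size was not more frequent among members. All 5 P150KD arrays lay below all 3 siControl arrays for 50 of the 77 genes, against 21.8% of all tested genes, and above them for 1, Mrps6, against 10.2% of all tested genes. The median standard deviation of a member was 0.24 over P150KD arrays and 0.18 over siControl arrays.

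Members lay in the bright part of the array, where more genes passed and the typical fold change was more negative than among dim genes. Genes of like signal level were therefore taken as the 2064 other tested genes whose mean over all arrays fell within the interquartile range of the members, 3.65 to 5.48. Among these genes 19.6% fell, 6.73% rose, 71.3% had a log2 fold change below 0 and 39% had all P150KD arrays below all siControl arrays. Their median was -0.32. The median of all tested members, inside that range or not, was 0.46 lower on the log2 scale, a difference of -0.46. Housekeeping and median scaling shift all genes of an array alike and cannot move this difference; quantile normalization, which can, gave -0.45. The 39 members inside the window had 15 that fell and a median of -0.68, a smaller distance from the -0.32 of the other genes there. When all tested genes were ordered by level and cut into 20 bins, 62 members lay below the median of their own bin and 15 above it, with a median difference of -0.44.

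**Figure D1:**
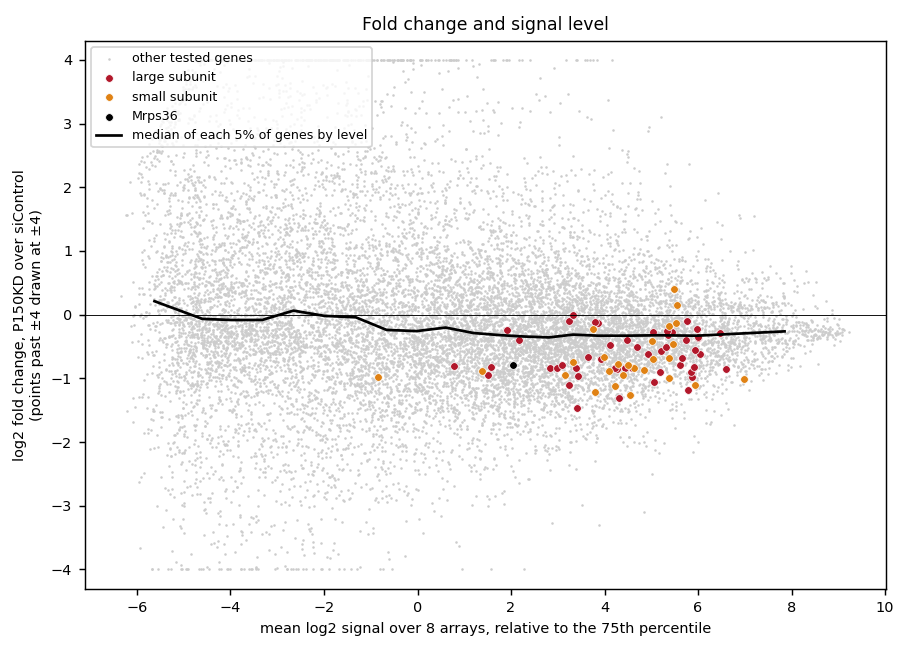
Log2 fold change of P150KD over siControl (y axis, points beyond ±4 drawn at the edge) against the mean log2 signal over the 8 arrays (x axis, relative to the 75th percentile), 1 point per tested gene. Members (red, large subunit; orange, small subunit; black, Mrps36) lie mostly below the black line that joins the medians of 20 level bins, 62 of 77 below their own bin's median; with arrays scaled to housekeeping genes all points shift upward alike.

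Genes of both subunits fell. For the large subunit 19 of 50 tested genes fell, all 50 estimates were below 0 and the median was -0.67. The small subunit had 10 of 26 that fell, 24 of 26 estimates below 0 and a median of -0.82. Housekeeping scaling moved these medians to -0.017 for the large and -0.17 for the small subunit. Among all tested genes 10.5% fell and 61.3% had an estimate below 0. Among genes of like signal level these shares were 19.6% and 71.3%. The P150KD arrays lay below the siControl arrays without overlap for 31 of the 50 large-subunit genes and 18 of the 26 small-subunit genes. The same held for 21.8% of all tested genes and 39% of genes of like signal level. Mrps36, which carries the family name but is now known as a part of the oxoglutarate dehydrogenase complex, was counted in neither and also fell (-0.78, SE 0.21, adjusted p = 0.0496). No difference between the subunits was tested.

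Components were classed by the uniform nomenclature of ribosomal proteins, as having a bacterial homologue or as mitochondrion-specific. The classes follow these names, and homology itself was not examined. Genes of both classes fell in part. In the large subunit 12 of 29 genes with a homologue fell (median -0.68) and 7 of 21 mitochondrion-specific genes fell (median -0.62). Among small-subunit genes 5 of 16 with a homologue fell (median -0.82) and 5 of 10 mitochondrion-specific genes fell (median -0.83). For 9 of these last 10 the arrays of the groups did not overlap, Mrps26 being the exception. All P150KD arrays were likewise below all siControl arrays for 21.8% of all tested genes and 39% of genes of like signal level. The shares that fell were 10.5% and 19.6%. Mrps30 and Mrps18a, named for the small subunit, belong to the large one in the assembled ribosome and were counted there.

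**Figure D2:**
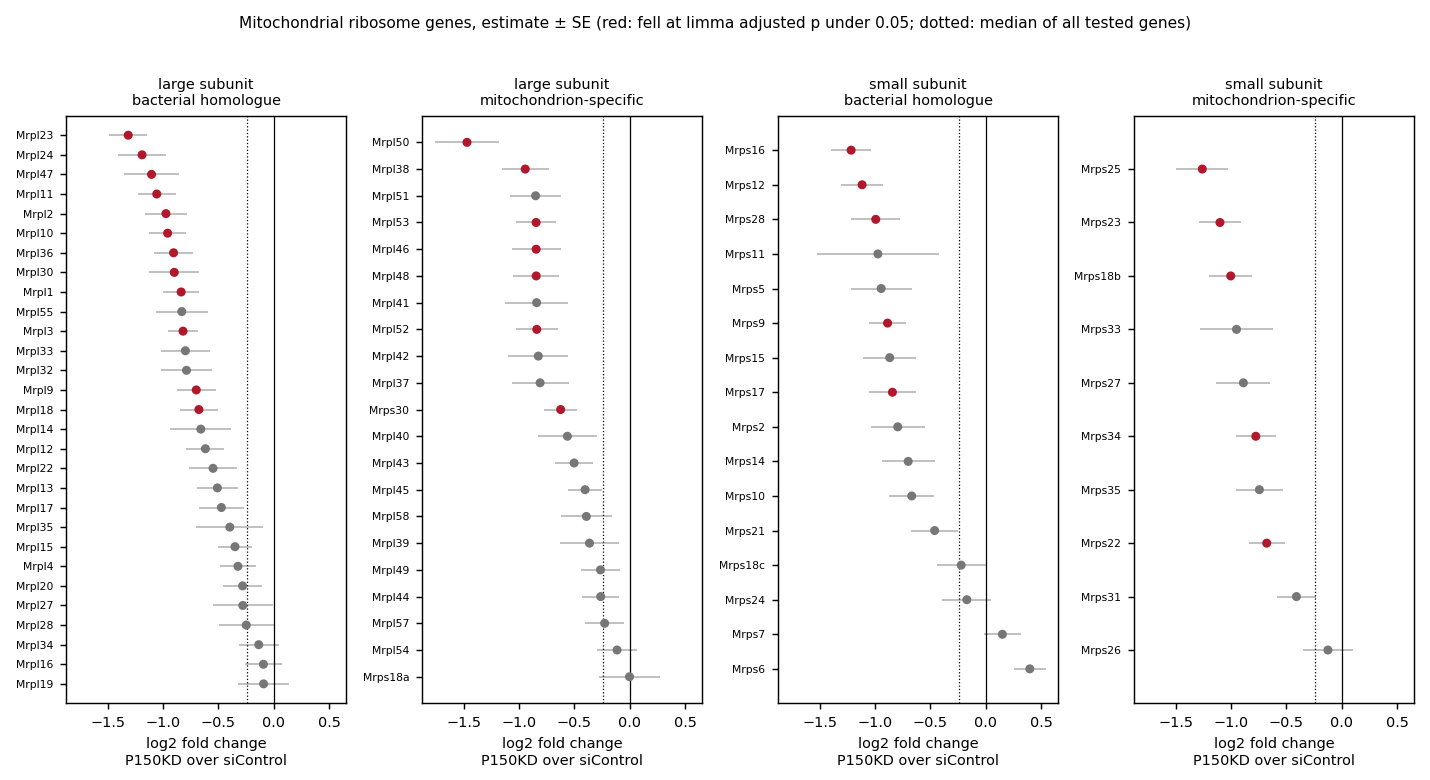
Log2 fold change of P150KD over siControl with its SE (x axis) for each tested member in 4 panels, Mrps36 left out. Panels are by subunit and by class in the uniform nomenclature, bacterial homologue or mitochondrion-specific. Red points fell by limma and grey points did not pass; the dotted line marks the median of all tested genes, -0.24, and all estimates but those of Mrps6 and Mrps7 are below 0 on this scale, which housekeeping scaling moves upward.

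Among large-subunit genes the smallest p belonged to Mrpl23, whose bacterial counterpart lies at the exit of the peptide tunnel. It read 3.75, 3.85, 3.97, 3.87 and 3.65 on P150KD arrays, against 5.16, 4.90 and 5.34 on siControl arrays. No P150KD array came near a siControl array. The log2 fold change was -1.31 (SE 0.17, adjusted p = 0.00522), or 2.49-fold lower. Mrpl24, another protein of the tunnel exit, read 5.35, 5.72, 5.48, 5.03 and 5.13 on P150KD arrays, against 6.48, 6.35 and 6.76 on siControl arrays. The groups did not overlap and P150KD replicates 4 and 5 were lowest, with a log2 fold change of -1.19 (SE 0.22, adjusted p = 0.0142).

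Both proteins at the base of the stalk that engages translation factors fell. Mrpl11 read 4.93, 4.68, 4.59, 4.63 and 4.53 on P150KD arrays, against 5.92, 5.68 and 5.59 on siControl arrays. P150KD replicate 1 was the highest of its group and still below all siControl arrays, and the log2 fold change was -1.06 (SE 0.17, adjusted p = 0.0101). Mrpl10, which anchors the stalk protein Mrpl12, read 2.93, 2.96, 3.03, 3.19 and 3.23 on P150KD arrays, against 3.82, 4.13 and 4.13 on siControl arrays. Again no P150KD array reached a siControl array, with a log2 fold change of -0.96 (SE 0.17, adjusted p = 0.0129), and a dimmer probe of the gene gave -0.96 as well. Mrpl12 itself was at -0.62 and missed the threshold (adjusted p = 0.0523), with a sign that turned under housekeeping scaling.

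Mrpl3, a protein that reaches towards the peptidyl transferase centre, fell as well, with arrays of each group close together. Its level was 5.63, 5.63, 5.60, 5.62 and 5.53 on P150KD arrays, against 6.46, 6.39 and 6.41 on siControl arrays. No value of one group came near the other, and the log2 fold change was -0.82 (SE 0.14, adjusted p = 0.0115). Mrpl2, also near that centre, was at -0.97 (SE 0.19, adjusted p = 0.0177). Mrpl1, of the mobile L1 stalk, read 3.02, 3.20, 3.18, 2.98 and 3.05 on P150KD arrays, against 4.04, 4.02 and 3.71 on siControl arrays. siControl replicate 3 was the closest to the P150KD arrays without reaching them, and the log2 fold change was -0.84 (SE 0.16, adjusted p = 0.0171).

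The lowest estimate of all members was that of Mrpl50, a mitochondrion-specific protein, at -1.47 (SE 0.29, adjusted p = 0.0185). Its dimmer probe gave -0.31 and did not pass (adjusted p = 0.681). The other large-subunit genes that fell were, among those with a homologue, Mrpl47 (-1.10), Mrpl36 (-0.90), Mrpl30 (-0.90), Mrpl9 (-0.70) and Mrpl18 (-0.68). Mitochondrion-specific ones were Mrpl38 (-0.94), Mrpl53 (-0.85), Mrpl46 (-0.85), Mrpl48 (-0.85), Mrpl52 (-0.84) and Mrps30 (-0.62). Mrpl45, which tethers the ribosome to the inner membrane, was at -0.40 (adjusted p = 0.122), and Mrpl58, a peptidyl-tRNA hydrolase that frees stalled ribosomes, at -0.39 (adjusted p = 0.294). The estimates of Mrps30, Mrpl45 and Mrpl58 turn positive with housekeeping scaling, on which scale 31 of the 77 estimates lie above 0.

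In the small subunit Mrps16 had the smallest p. It read 3.13, 3.71, 3.28, 3.29 and 3.31 on P150KD arrays, against 4.68, 4.53 and 4.47 on siControl arrays. P150KD replicate 2 stood above the other P150KD arrays but below all siControl arrays, and the log2 fold change was -1.22 (SE 0.18, adjusted p = 0.00783), or 2.32-fold lower. Mrps12, whose bacterial counterpart lies in the decoding centre, read 3.55, 4.07, 3.94, 3.64 and 3.81 on P150KD arrays, against 5.11, 4.75 and 4.89 on siControl arrays. Here too the groups were separate, with a log2 fold change of -1.12 (SE 0.19, adjusted p = 0.0116).

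Mrps9, whose bacterial counterpart reaches the site of the peptidyl-tRNA, read 3.83, 3.48, 3.79, 3.74 and 3.93 on P150KD arrays, against 4.64, 4.58 and 4.71 on siControl arrays. P150KD replicate 2 was lowest, and the log2 fold change was -0.89 (SE 0.16, adjusted p = 0.0152). Mrps28 (-0.99) and Mrps17 (-0.84) were the other small-subunit genes with a homologue that fell. Both tested probes of Mrps17 passed.

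Of the mitochondrion-specific small-subunit genes, Mrps23 read 5.69, 5.68, 5.67, 5.36 and 5.17 on P150KD arrays, against 6.68, 6.69 and 6.48 on siControl arrays. P150KD replicates 4 and 5 were lower than the other 3, all 5 were below siControl, and the log2 fold change was -1.10 (SE 0.19, adjusted p = 0.0123). The dimmer probe of Mrps23 gave -0.71 and did not pass (adjusted p = 0.0593). Mrps25 read 4.05, 3.91, 4.48, 4.20 and 3.68 on P150KD arrays, against 5.37, 5.04 and 5.57 on siControl arrays. The arrays of Mrps25 varied more within each group than those of Mrps23 but did not overlap, with a log2 fold change of -1.26 (SE 0.23, adjusted p = 0.0151). Mrps34 (-0.78) and Mrps22 (-0.68), a gene mutated in a human mitochondrial disease, fell as well.

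Mrps18b, whose probe had the highest signal of the members in siControl, read 6.61, 6.93, 6.71, 6.49 and 6.34 on P150KD arrays, against 7.84, 7.51 and 7.51 on siControl arrays. P150KD replicate 2 was nearest to siControl, and the log2 fold change was -1.003 (SE 0.19, adjusted p = 0.0173). The dimmer probe of Mrps18b gave -0.54 and did not pass (adjusted p = 0.227). Mrps11, whose probe had the lowest signal, read -1.16, -2.23, -1.995, -0.44 and -0.25 on P150KD arrays, against -0.39, -0.79 and 0.46 on siControl arrays. The groups overlapped, since P150KD replicates 4 and 5 read above siControl replicate 2, and the log2 fold change of -0.97 had an SE of 0.55 (adjusted p = 0.271).

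Genes just outside the threshold had estimates like those just inside it. Mrpl51 was at -0.85 (adjusted p = 0.0501), Mrpl33 at -0.80 (adjusted p = 0.0507) and Mrps27, a protein with pentatricopeptide repeats, at -0.89 (adjusted p = 0.0508). The groups did not overlap for these 3 genes.

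Of the 4 highest estimates, only that of Mrps6 had its groups apart. Mrps6 read 5.65, 5.60, 5.72, 5.62 and 5.55 on P150KD arrays, against 5.32, 5.19 and 5.19 on siControl arrays. All P150KD arrays were above all siControl arrays, with a log2 fold change of 0.40 (SE 0.14) that missed the threshold (adjusted p = 0.109). It passed as higher after quantile normalization, with housekeeping scaling and with a trended, robust variance model. Mrps7, whose bacterial counterpart organises the head of the small subunit, read 5.73, 5.50, 5.49, 5.68 and 5.66 on P150KD arrays, against 5.52, 5.64 and 5.23 on siControl arrays. These groups overlapped (0.15, SE 0.17, adjusted p = 0.587), and the dimmer probe of Mrps7 had the opposite sign (-0.43, adjusted p = 0.286).

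Mrps18a read 3.21, 2.78, 3.03, 3.83 and 3.73 on P150KD arrays, against 3.31, 3.41 and 3.23 on siControl arrays. P150KD replicates 4 and 5 were above, and replicates 1 to 3 below, all siControl arrays, so that the estimate of -0.0033 (SE 0.28, adjusted p = 0.996) averages values on both sides; it is positive under quantile normalization and housekeeping scaling. Mrpl19 read 3.003, 2.87, 3.09, 3.49 and 3.58 on P150KD arrays, against 3.35, 3.48 and 3.06 on siControl arrays. P150KD replicates 4 and 5 were above all siControl arrays, replicates 1 and 2 below them and replicate 3 between them, so that the groups overlapped (-0.093, SE 0.23, adjusted p = 0.814); its sign also turned under quantile normalization and housekeeping scaling.

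**Figure D3:**
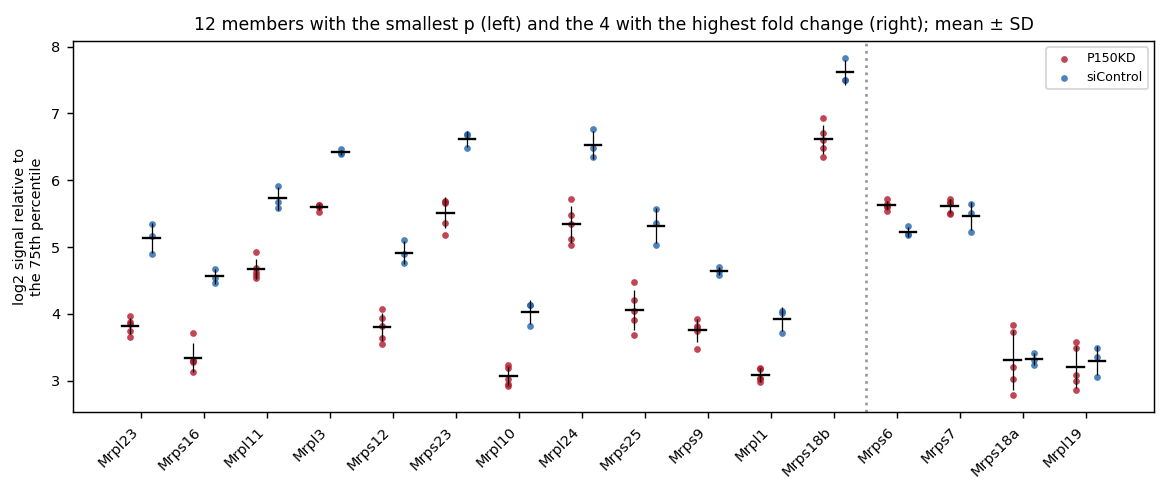
Log2 signal relative to the 75th percentile (y axis) on each P150KD array (red, left of each pair) and each siControl array (blue, right), with mean ± SD, for the 12 members with the smallest p and, right of the dotted line, the 4 with the highest fold change. The groups are apart and P150KD is lower for all 12 on the left, a choice by p that favours groups that are apart. All P150KD arrays are below all siControl arrays for 21.8% of all tested genes. On the right the groups are apart only for Mrps6, with P150KD higher, and Mrps18a and Mrpl19 change sign with the scaling.

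The lower level was present on each P150KD array. The median over the 77 genes of the difference from the siControl mean was -0.67, -0.60, -0.65, -0.78 and -0.76 on P150KD replicates 1 to 5, against 0.04, -0.05 and 0.03 on siControl replicates 1 to 3. For genes of like signal level it was -0.31, -0.30, -0.32, -0.32 and -0.34 on the P150KD arrays. On single P150KD arrays 67, 62, 67, 63 and 64 of the 77 genes were below all 3 siControl arrays, where 41.3% to 46.8% of all tested genes were.

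The arrays lay on 1 slide scanned on 1 day. The barcodes in the file headers place them in 2 sets, here called columns. Column 1 held P150KD replicate 1 and all siControl arrays, and column 2 held P150KD replicates 2 to 5. Within the shared column the median difference of the 77 genes was -0.67. With the column as a block 0 of the 77 passed by limma and 23 were lower at an unadjusted p under 0.05, in a fit whose comparison rests on P150KD replicate 1. The count that fell also depended on single arrays: it was 4, 12 and 11 without siControl replicates 1, 2 and 3, and 18, 25, 20, 18 and 24 without P150KD replicates 1 to 5. Mrpl11, Mrpl23 and Mrps16 were the 3 members that stayed past the threshold whichever array was left out.

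**Figure D4:**
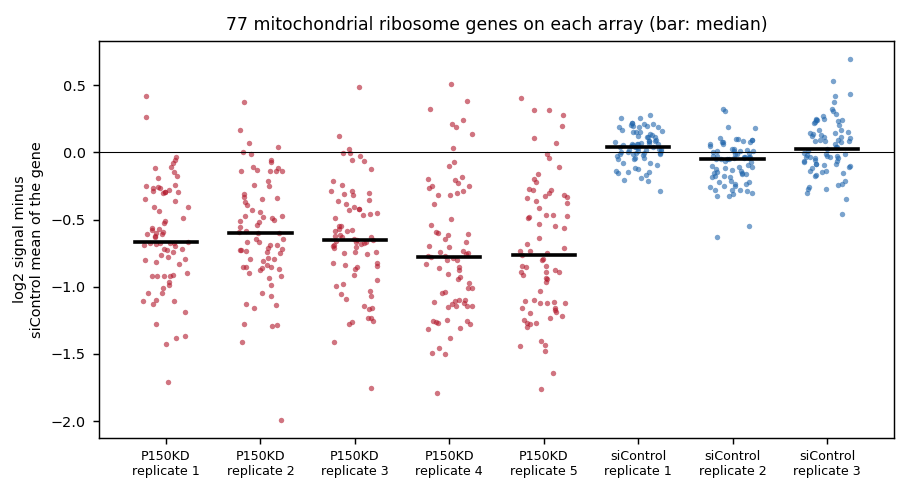
Log2 signal minus the siControl mean of the gene (y axis) for the 77 members on the 5 P150KD arrays (red, left) and the 3 siControl arrays (blue, right), with the median of each array as a bar. The medians lie between -0.78 and -0.60 on P150KD arrays and between -0.05 and 0.04 on siControl arrays; all are relative to the 75th percentile, and housekeeping scaling moves the overall median to -0.13.

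Of the 77 genes, 56 had 1 tested probe and 21 had 2, and the brighter one stands for the gene above. In 19 of the 21 both probes were lower, and in 2, Mrps26 and Mrps7, they had opposite signs; the brighter probe of Mrps26 was at -0.13 and turned positive under quantile normalization and housekeeping scaling. The estimates of a pair lay within 0.2 of each other in 12 genes. Both probes passed for Mrpl10 and Mrps17, 1 of the pair passed for 6 genes, and neither passed for 13. Among the 6, the dimmer probe did not pass for Mrpl50, Mrps18b, Mrps23, Mrpl47 (-0.54, adjusted p = 0.202) and Mrps36 (-0.79, adjusted p = 0.101). Mrpl49 is 1 of those 6: its brighter probe gave -0.27 (adjusted p = 0.353; positive with housekeeping scaling) and its dimmer one -0.96 (SE 0.19, adjusted p = 0.0167).

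Other genes of mitochondrial translation were described from lists chosen by function. Of 5 ribosome proteins that carry other names, Chchd1 and the GTP-binding Dap3, both of the small subunit, fell. Chchd1 read 4.13, 4.52, 3.96, 3.82 and 3.65 on P150KD arrays, against 5.51, 5.42 and 5.39 on siControl arrays (-1.43, SE 0.23, adjusted p = 0.00919). Dap3 read 5.56, 5.67, 5.83, 5.48 and 5.42 on P150KD arrays, against 6.47, 6.50 and 6.61 on siControl arrays (-0.93, SE 0.16, adjusted p = 0.0129). The groups were apart for both. P150KD arrays lay below siControl arrays in the same way for 21.8% of all tested genes, and 10.5% of all tested genes fell. Ptcd3 was at -0.47 (adjusted p = 0.0815), Aurkaip1 at 0.10 (adjusted p = 0.666) and the large-subunit protein Gadd45gip1 at 0.54 (adjusted p = 0.0953). Gadd45gip1 passed as higher after quantile normalization (0.78, adjusted p = 0.0380), with housekeeping scaling (1.20, adjusted p = 0.0135) and with a trended, robust variance model (0.54, adjusted p = 0.0409), and Aurkaip1 with housekeeping scaling (0.75, adjusted p = 0.0154).

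Among 25 tested factors of ribosome assembly and ribosomal RNA modification, 4 fell (16%), 1 rose and the median was -0.42. That share lies between the 10.5% of all tested genes and the 19.6% of genes at the members' signal level that fell. The list was dimmer than the members, with a median siControl level of 3.44 beside 5.13. Those that fell were the GTPases Mtg1 (-1.14, adjusted p = 0.00863) and Mtg2 (-1.28, adjusted p = 0.0411), which act in large-subunit assembly, and the pseudouridine synthases Rpusd3 (-1.27, adjusted p = 0.0116) and Rpusd4 (-0.79, adjusted p = 0.0289). Trmt61b, an RNA methyltransferase, rose by 1.95 (SE 0.32, adjusted p = 0.0108). It read 3.58, 2.76, 3.33, 3.10 and 2.96 on P150KD arrays, against 0.62, 1.89 and 1.08 on siControl arrays. All P150KD arrays of Trmt61b were above all siControl arrays.

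Of 16 tested translation factors and associated proteins 4 fell (25%), the others did not pass and the median was -0.47. Among all tested genes 10.5% fell, and among genes at the members' signal level 19.6%. The list was dimmer than the members, with a median siControl level of 3.34. Oxa1l, the insertase of the inner membrane, was at -1.30 (adjusted p = 0.00933) and Mtfmt, which formylates the initiator methionyl-tRNA, at -1.42 (adjusted p = 0.0106). Lrpprc, which stabilises mitochondrial messenger RNA, was at -0.66 (adjusted p = 0.0349), and the elongation factor Gfm1 at -0.60 (adjusted p = 0.0368). Of 20 enzymes that charge mitochondrial tRNA, 4 fell (20%), against 10.5% of all tested genes. These were Rars2 (-1.19), Fars2 (-2.43), Qrsl1 (-1.44) and Pars2 (-1.24). The other enzymes did not pass and the median over the 20 was -0.46. Estimates were below 0 for 18 of the 20, and by limma's unadjusted p under 0.05, 9 were lower and 0 higher. This list too was dimmer than the members, with a median siControl level of 2.62, so the 19.6% is not the share at its own level. For 9 genes of mitochondrial DNA transcription and upkeep the median was -0.35, and 1, the single-stranded DNA binding protein Ssbp1, fell (-0.98, SE 0.17, adjusted p = 0.0129). That is 11.1% of the 9, near the 10.5% of all tested genes that fell.

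None of 8 tested regulators of nuclear mitochondrial genes passed by limma (unadjusted p under 0.05 for Esrra and Ppargc1b), and their median was 0.25. Nrf1, which binds many promoters of such genes, was at 0.39 (SE 0.19, adjusted p = 0.208), though the mean of its tested probes was at -0.33. Gabpa, an ETS factor with the same role, was at -0.27 (adjusted p = 0.446), Esrra at 0.54 (adjusted p = 0.129), Pprc1 at 0.54 (adjusted p = 0.196) and Ppargc1b at -2.08 (SE 0.73, adjusted p = 0.102), which passed as lower without P150KD replicate 2 (-2.62, adjusted p = 0.0129). With housekeeping scaling Nrf1 (1.05, adjusted p = 0.0101), Esrra (1.19, adjusted p = 0.0168) and Pprc1 (1.19, adjusted p = 0.0327) passed as higher, and Gabpa turned positive. Of 84 cytosolic ribosomal proteins 0 passed by limma (0 at an unadjusted p under 0.05), 79 estimates were below 0 and the median was -0.27, beside -0.24 over all tested genes. The examples with the smallest p, Rps15 (-0.41) and Rps9 (-0.40), have adjusted p-values of 0.179 and 0.184, and both turn positive with housekeeping scaling, as do Gfm1 and Ptcd3.

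**Figure D5:**
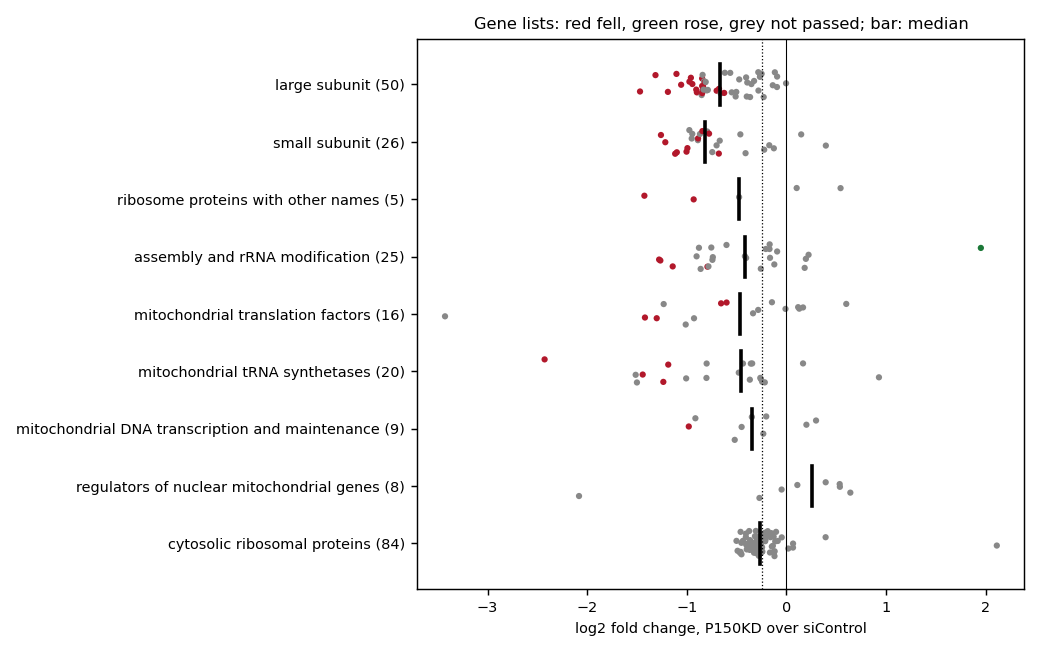
Log2 fold change of P150KD over siControl (x axis) for each tested gene of 9 lists (y axis, number tested in brackets), red for genes that fell, green for the 1 that rose and grey for those that did not pass, with the list median as a bar and the median of all tested genes, -0.24, dotted. The bars of the large and small subunit lie at -0.67 and -0.82, and that of the cytosolic ribosomal proteins at -0.27; housekeeping scaling moves every point upward by the same amount.

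Promoter sequences of 68 of the 77 tested genes were found in the RefSeq table of build GRCm38.p6, each with 250 bases before and 50 after the start. They were searched on both strands for letters bound by factors known from such promoters. The core NRF1 motif occurred in 13 of the 68 (19.1%), against 9.21% of 11654 promoters of tested genes and 4.78% of all 27025. Among members it was in 3 of 27 that fell and 10 of 41 that did not pass. The ETS letters CCGGAAG occurred in 24 (35.3%), against 16.1% of promoters of tested genes, with 9 of 27 that fell and 15 of 41 that did not pass. The YY1 motif was in 5 (7.35%, against 1.90%), with 0 of 27 that fell. CCAAT was in 27 (39.7%, against 39.0%), with 14 of the 27 that fell and 13 of the 41 that did not pass. GGGCGG, bound by SP factors, was in 34 of the 68 (against 58.7%), and the E-box CACGTG in 5 (7.35%, against 9.72%). A match is a description of the letters and not of binding, and no match says only that these letters are not in this window.

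The sequences of 4 promoters show how these letters lie before the start. Mrpl3 (chr9:105053018-105053267, plus strand) and Mrps22 (chr9:98601680-98601929, minus strand) fell, Mrpl12 (chr11:120484387-120484636, plus strand) lies just outside the threshold, and Mrps6 (chr16:92058086-92058321, plus strand) has the highest estimate. Each runs 5′ to 3′ from 250 bases before the start up to the start, or for Mrps6 to 15 bases before it, where another annotated gene begins. Capitals mark ETS letters in Mrpl3 and Mrps22 and the NRF1 motif in Mrpl12. The ETS letters start 19 bases before the start in Mrpl3 and 11 bases before it in Mrps22, and the NRF1 motif of Mrpl12 starts 81 bases before it.
Mrpl3: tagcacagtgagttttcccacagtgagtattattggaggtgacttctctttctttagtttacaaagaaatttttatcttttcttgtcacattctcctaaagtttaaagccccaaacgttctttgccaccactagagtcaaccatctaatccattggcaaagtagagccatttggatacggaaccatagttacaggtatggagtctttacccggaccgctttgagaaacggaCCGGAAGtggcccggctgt
Mrps22: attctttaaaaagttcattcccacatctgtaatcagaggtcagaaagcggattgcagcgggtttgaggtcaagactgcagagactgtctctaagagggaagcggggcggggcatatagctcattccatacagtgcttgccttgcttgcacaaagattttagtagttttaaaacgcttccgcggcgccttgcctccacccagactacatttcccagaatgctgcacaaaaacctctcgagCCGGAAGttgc
Mrpl12: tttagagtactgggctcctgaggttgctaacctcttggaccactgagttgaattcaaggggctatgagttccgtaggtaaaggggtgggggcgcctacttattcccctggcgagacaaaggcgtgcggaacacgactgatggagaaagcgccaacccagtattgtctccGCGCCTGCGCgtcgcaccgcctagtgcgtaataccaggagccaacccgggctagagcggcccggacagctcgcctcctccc
Mrps6: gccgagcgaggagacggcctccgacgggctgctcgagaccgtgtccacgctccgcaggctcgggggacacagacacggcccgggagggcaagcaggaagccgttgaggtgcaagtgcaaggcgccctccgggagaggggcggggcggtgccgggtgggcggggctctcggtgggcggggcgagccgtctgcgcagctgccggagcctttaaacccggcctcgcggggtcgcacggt

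Mrps6 has neither set of letters in the printed stretch, and 4 matches of GGGCGG in its whole window.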

How the data were processed

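RNA of 5 P150KD and 3 siControl samples was measured on one-colour Agilent arrays. Scans were read by the authors in Agilent Feature Extraction (10.5.1 per the submitters' processing notes). Per the file headers, processed signals are intensity values with background and spatial trend removed and no scaling between arrays; raw median intensity values and flags of other kinds, 0 or 1, were also used. The deposited series table holds log2 values, which differ from scaled log2 signals, after subtraction of the probe's median over 8 arrays, by up to 1.24 and by 0.00554 at the 99th percentile of differences; its column medians are -0.21 to 0.09.

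Control spots were left out and spots of a probe averaged (55681 probes). Log2 signals minus the array's 75th percentile were fitted with limma 3.58.1 in R 4.3.3 (lmFit, eBayes, two-sided, no covariates) for 30348 probes well above background on at least 3 of 8 arrays. The probe with the highest mean stood for its gene. Through RefSeq accessions 27229 probes received 1 symbol and 28452 none. The number of arrays limits the precision. Tables used Python 3.11.15 and pandas 2.3.3.

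Members, lists and alternatives were chosen with earlier results of these data known. Values on every array are given for Chaf1a, the 12 members with the smallest p, the 4 with the highest fold change and the ones with the dimmest and brightest probe in siControl; members that fell are all named, with up to 4 genes of each further list by smallest p (all that passed, for assembly factors) and members whose probes differ in sign. Other members named beside them, Gabpa and Aurkaip1, and array values of Chchd1, Dap3 and Trmt61b, were chosen after their values were seen. In data simulated for this comparison with 30348 probes, 0 of 100 probes changed 2-fold and 32 of 100 changed 4-fold were recovered; no other probe was changed there, and recovery is lower where few change. Alternatives were normexp with an offset of 50 on median signals, quantile normalization, median and housekeeping scaling, the series table, other filters, replicate and slide-column blocks, trended and robust eBayes, array weights with statmod 1.5.0, mean of probes, a wider like-level window, and each array left out. With 1 slide no slide block was possible.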

Additional observations from a re-analysis of the deposited data

Results flagged for a closer look

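Among the 5 P150KD arrays, a single array stood far from the others (by Dixon's ratio of its gap to the whole range, critical value 0.71) in 4 of 106 genes examined, where chance flags about 1 in 20 groups. P150KD replicate 5 was lowest for Mrpl33, at 4.85 with the next array at 5.34 (ratio 0.735). P150KD replicate 2 was highest for Mrpl13, at 4.87 with the next at 4.44 (ratio 0.856). P150KD replicate 2 was also lowest for Rpl3l, a ribosomal protein of striated muscle, at -7.12 with the next at -3.51 (ratio 0.815), where its probe was not well above background on that array (it passed as higher without it, 2.92, adjusted p = 0.00327), and highest for Ppargc1b, a coactivator of mitochondrial genes, at -1.43 with the next at -3.54 (ratio 0.715). Mrpl33 and Mrpl13 did not pass in the comparison of the groups, with adjusted p-values from limma of 0.0507 and 0.106.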

How the results depend on the processing

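The number of members that fell, 30, was 35 with normexp, 31 with the series table, 29 with the mean of probes, 20 without the filter, 42 with only probes above background on all arrays, 41 with array weights and 46 with trended, robust eBayes, which also had 1 that rose. It was 15 with median scaling, 15 with quantile normalization (1 rose; medians -0.53 for all members, -0.43 for the large and -0.57 for the small subunit) and 1 with housekeeping scaling (2 rose; medians -0.13, -0.017 and -0.17). Leaving out each array in turn gave 4 to 25 that fell (lowest without siControl replicate 1; 12 and 11 without siControl replicates 2 and 3, 18 each without P150KD replicates 1 and 4), medians of -0.79 to -0.68 (large -0.70 to -0.62, small -0.84 to -0.77), a difference from like-level genes of -0.47 to -0.35 and 1706 to 3749 probes past the threshold (1706, 2255 and 2172 without siControl replicates 1, 2 and 3). That difference was -0.47 with the like-level window widened to the lowest and highest member. With fewer arrays fewer genes pass; other causes were not tested.

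Replicate numbers did not pair the arrays: deviations of same-numbered arrays correlated at -0.01, -0.07 and -0.02 over probes. With the replicate block 0 members and 0 probes passed by limma (35 members lower at an unadjusted p under 0.05), with medians of -0.62 (small subunit -0.71) and a difference from like-level genes of -0.31; P150KD replicates 4 and 5 then have no partner. The slide column as a block gave 0 members and 713 probes, medians of -0.67 (small subunit -0.69) and a difference of -0.36.

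Of 79 named genes over these settings, 1167 estimates kept direction and side of the threshold, 343 no longer passed, 40 newly passed and 29 changed sign. Sign changes under quantile normalization were Mrps18a (0.21), Mrpl19 (0.12) and Mrps26 (0.15). Under housekeeping scaling they were Mrps18a (0.65), Mrpl19 (0.56), Mrps30 (0.027), Gfm1 (0.051), Ptcd3 (0.18), Mgme1 (0.13), Rps15 (0.25), Rps9 (0.25), Rpl23a (0.29), Twnk (0.30), Mrpl12 (0.033), Mrpl13 (0.14), Mrpl40 (0.088), Mrpl45 (0.25), Mrpl49 (0.39), Mrpl58 (0.26), Mrps26 (0.53), Gabpa (0.38) and Sars2 (0.40); of all 77 members 31 were above 0. With the mean of probes they were Mrps7 (-0.14), Nrf1 (-0.33) and Gabpa (0.076). Mrps18a was at 0.04, 0.02, 0.13 and 0.07 without siControl replicate 2 and P150KD replicates 1, 2 and 3.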

Other observations

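Several members share a short stretch of DNA with a gene read in the opposite direction. By the RefSeq table, 26 members start within 1000 bases of such a neighbour. Of 22 tested neighbours that are not members themselves, 3 fell (Zfp661, Psma2 and Gga3), or 13.6%, near the 10.5% of all tested genes. The estimate was below 0 for 17 of the 22, against 61.3% of all tested genes. Their median log2 fold change was -0.47, beside -0.24 over all tested genes. In 7 cases the member had fallen and its neighbour was tested, and of these neighbours 0 passed by limma (2 were lower at an unadjusted p under 0.05). Some pairs had similar estimates and others did not. Mrpl30 was at -0.90 and its neighbour Mitd1 at -0.98 (limma adjusted p = 0.0633). Mrpl2 was at -0.97 and its neighbour Klc4 at -0.71 (limma adjusted p = 0.19). Mrps12 was at -1.12 and its neighbour Sars2, the mitochondrial seryl-tRNA synthetase, at -0.26 (adjusted p = 0.737, positive with housekeeping scaling). Mrpl40 was at -0.56 (adjusted p = 0.204; positive with housekeeping scaling) and its neighbour Hira, a chaperone of histone H3.3, at 0.57 (adjusted p = 0.372). Mrps11 and Mrpl46 are each other's neighbours, at -0.97 (adjusted p = 0.271) and -0.85 (adjusted p = 0.0449).

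P150KD replicates 4 and 5 had the 2 lowest values of the P150KD arrays for 31 of the 77 members (40.3%), beside 16.6% of all tested genes and 24.9% of genes of like signal level. They had the 2 highest values for 18 members (23.4%), beside 18.1% and 18.7%. The pattern was seen in the data and was not tested.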
